A study of Mus musculus with 4 samples.

Results

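Single-cell RNA-seq libraries of MC38 tumors, a mouse colon adenocarcinoma line grown in C57BL/6 mice, held 543 Havcr2-positive CD8 T cells among 33228 cell barcodes, of which 31143 had more than 500 genes. A barcode counted as a Havcr2-positive CD8 T cell when it had more than 500 genes, at least 2 UMIs (unique molecular identifiers, each 1 captured RNA molecule) of Cd3d, Cd3e and Cd3g together, at least 1 UMI of Cd8a or Cd8b1 and at least 1 UMI of Havcr2. It also had to hold 0 UMIs of Cd4, Foxp3, Trdc, Hmga2 and C1qa, which mark helper T cells, regulatory T cells, gamma-delta T cells, the tumor line and macrophages. The cells were thus selected on measured UMIs, and the levels of these genes are given as a description only. The same gate with 0 UMIs of Havcr2 gave 828 Havcr2-negative CD8 T cells, the closest comparison group.

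The 4 groups crossed tumor genotype (WT or A159V) with antibody (IgG or anti-PD1), with 1 library each. WT and A159V refer to the tumor cells, which carried RAC1, a small GTPase, either as wild type or with an A159V substitution placed in the endogenous gene by CRISPR-Cas9 in lines grown from single sorted cells, so the mutant stands for clonal material. The T cells came from the C57BL/6 host and did not carry the substitution, and the animals received either an IgG isotype control or a PD1-blocking antibody. Before loading, immune (CD45+) and other (CD45-) cells were parted on beads and recombined at a fixed ratio, which sets the share of immune cells in each library. No group had a replicate, the number of animals behind a library is not given in the sources used here, and no test between groups was possible. Intervals given with these values are 95% intervals that cover counting error only.

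The libraries held 54402632 to 125227747 UMIs, and the barcodes over 500 genes had medians of 3662 to 4449.5 UMIs. Between 13 and 22 barcodes were shared by any pair of libraries, and 0 of them were Havcr2-positive CD8 T cells. The WT anti-PD1 library stood apart. Collagen and other stromal marker UMIs (6 genes) stood at 6017 CPM (UMIs per 1000000) in its Havcr2-positive CD8 T cells, against 24 to 63 in the other 3 libraries, and 137 of its 266 cells held a Col1a1 UMI. The same stromal list stood at 8700 CPM in the Havcr2-negative cells of that library.

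Havcr2 encodes TIM-3, an inhibitory surface receptor that T cells acquire under lasting stimulation through the T cell receptor. In tumors, TIM-3 together with PD-1 marks CD8 T cells far along the path from memory-like precursors to effector and exhausted cells. Precursors keep the transcription factor TCF1, encoded by Tcf7, whereas cells further along carry perforin, granzymes and interferon gamma.

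The gate retained 106 cells from WT IgG and 266 from WT anti-PD1, and from A159V it retained 47 under IgG and 124 under anti-PD1. Before the 5 exclusion genes were applied, these numbers were 135, 327, 64 and 146. The cells held 777502, 1346023, 208528 and 734011 UMIs in total, with medians of 6519.5, 4092.5, 3139 and 5221.5 UMIs per cell, so A159V IgG had the fewest cells and the least depth. In A159V IgG the 10 deepest cells held 48.5% of all UMIs, against 13.9% to 22.9% elsewhere, which makes its levels depend on few cells. The Havcr2-negative cells were shallower, with medians of 3961, 3405, 2713 and 2862 UMIs, and Havcr2 is detected more readily in a deep cell. Levels are therefore given as this CPM, summed over a class, and each cell was thinned to 1500 UMIs before detection shares were taken. Thinning left out 1, 8, 2 and 4 Havcr2-positive and 4, 12, 19 and 21 Havcr2-negative cells with fewer UMIs.

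The markers of the labelled cell type were present in each library. Cd8a stood at 476, 478, 403 and 496 CPM and Cd8b1 at 490, 561, 393 and 399 CPM with WT before A159V and, within each, IgG before anti-PD1, the order of every set of 4 values below. Where a pair of libraries is compared, the library named first in the comparison has the first value. Pdcd1, which encodes PD-1 and was not part of the gate, stood at 249.5, 273, 119.9 and 209.8 CPM. Prf1, the pore-forming perforin, stood at 514, 276, 316.5 and 725 CPM. Havcr2 itself, on the plus strand of chromosome 11 at 46454935 to 46481255 (mm10), stood at 346, 703, 484 and 448 CPM.

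Many cells passed the gate on 1 Havcr2 UMI. Exactly 1 UMI was found in 45.3%, 29.7%, 53.2% and 42.7% of the cells, and 3 or more in 34.9%, 47.4%, 27.7% and 36.3%. Cells with 1 Havcr2 UMI, just inside the gate, had 484, 333, 249 and 562 CPM of Ifng, the interferon gamma gene. Cells with 0, just outside, had 88.1, 77.7, 51.1 and 135 CPM of Ifng, and cells with 3 or more had 974, 464, 468 and 629. Tcf7 stood at 7.23, 9.90, 22.7 and 24.4 CPM with 1 Havcr2 UMI and at 143, 194, 119 and 174 CPM with 0. In each library Ifng was thus higher, and Tcf7 lower, in cells with 1 Havcr2 UMI than in cells with 0. The cells with 1 Havcr2 UMI also carried the macrophage gene Lyz2, at 882, 92.4, 170 and 260 CPM, against 19.2, 24.4, 58.5 and 123 CPM with 0 and 37.0, 56.3, 58.5 and 179 CPM with 3 or more. Lyz2 RNA was thus highest just inside the gate in each library, and its part in the other differences at this edge was not tested.

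Compared with Havcr2-negative CD8 T cells, Havcr2-positive CD8 T cells carried more RNA of killing genes, inflammatory chemokines, inhibitory receptors and glycolytic enzymes, and less of memory and stem-like genes. UMIs were summed per library and class, the 11 genes of the gate were left out, and the classes were compared in edgeR with the library as a block (4 libraries, quasi-likelihood test, Benjamini-Hochberg adjusted p under 0.05). Of 8058 genes that passed the count filter, 561 (6.96%) were higher and 387 (4.8%) lower in the Havcr2-positive cells, and the median log2 fold change was -0.003. The direction was the same in each of the 4 libraries for 490 of the 561 and 372 of the 387. The calls were made on these same libraries, so this describes the called genes and adds no separate support. Without WT IgG the counts were 271 and 155, and without A159V anti-PD1 they were 282 and 146. When the gate was applied to counts thinned to 1500 UMIs, which left 43, 117, 22 and 46 cells, 101 genes were higher and 68 lower.

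Effector molecules led the genes that were higher. Ifng stood at 686, 395, 350.1 and 550.4 CPM in the Havcr2-positive cells and at 88.1, 77.7, 51.1 and 135 CPM in the Havcr2-negative cells, with no overlap between the classes (edgeR log2 fold change 2.56 ± 0.15 SE, adjusted p = 4.4e-07). After thinning, 41.9%, 34.1%, 26.7% and 34.2% of the Havcr2-positive cells had an Ifng UMI, against 10.4%, 11.4%, 5.56% and 8.02% of the Havcr2-negative cells. In non-immune cells, which should lack Ifng RNA, at most 0.0624% did. Without thinning the Havcr2-positive shares were 68.9%, 51.5%, 44.7% and 48.4%, those of Havcr2-negative cells 24.1%, 18.05%, 10.3% and 15.02%, and those of non-immune cells at most 0.235% at median depths of 13166 to 41667 UMIs. Prf1 stood at 514, 276, 316.5 and 725 CPM against 84.9, 122, 87.7 and 127 CPM (log2 fold change 2.12 ± 0.20, edgeR adjusted p = 2.02e-05). The lowest Prf1 level of the positive class lay above the highest of the negative class.

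The inflammatory chemokines Ccl3 and Ccl4, which attract other immune cells, were also higher. Ccl3 stood at 715, 609, 235 and 779 CPM against 72.1, 173, 38.4 and 86.4 CPM (log2 fold change 2.77 ± 0.21, edgeR adjusted p = 3.13e-06). Ccl4 was among the most abundant transcripts of the list, at 1847, 2558, 1544 and 1845 CPM against 387, 804, 435 and 501 CPM (log2 fold change 1.97 ± 0.10, edgeR adjusted p = 1.1e-07). Neither gene overlapped between the classes. Of 16 listed cytokines and chemokines, 10 passed the filter, 5 were higher (Ifng, Csf1, Ccl3, Ccl4, Tnfsf9) and 1 lower, with a median of 0.52. The lower one was Xcl1, which attracts XCR1-bearing dendritic cells, at 83.6, 20.1, 38.4 and 266 CPM against 309, 35.5, 216 and 521 CPM (log2 fold change -1.35 ± 0.20).

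Of 16 genes for cytotoxic granules and killing, 14 passed the filter, 8 were higher, 0 were lower and the median was 0.87. The 8 were Prf1, Gzmb, Gzmd, Gzme, Gzmf, Nkg7, the granule proteoglycan gene Srgn and the protease inhibitor gene Serpinb6b. Gzmb, the granzyme that triggers apoptosis in target cells, stood at 1988, 1592, 1309 and 2439 CPM against 794, 402, 1131 and 1029 CPM (log2 fold change 1.27 ± 0.18). After thinning, 64.8%, 65.5%, 71.1% and 73.3% of Havcr2-positive cells had a Gzmb UMI, against 44.8%, 35.2%, 54.8% and 46.2% of Havcr2-negative cells and at most 0.375% of non-immune cells. The unthinned shares were 79.2%, 79.7%, 85.1% and 80.6% against 55.5%, 44.4%, 61.4% and 60.1%. Gzma and Gzmc did not pass the test, with log2 fold changes of 0.93 ± 0.37 and 1.72 ± 0.75.

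Gzmc, Gzmd, Gzme and Gzmf lie close together on the minus strand of chromosome 14, between 56117626 and 56234656 (mm10), and encode serine proteases so alike that a read may fit several copies. Counts of single members are therefore uncertain. Stretches of their promoters are shown because all 4 genes were lowest in WT anti-PD1 among the Havcr2-positive cells. Sequences were taken from RefSeq (GRCm38.p6), 5′ to 3′ on the minus strand, and capitals mark TGTGGT, the core motif of RUNX factors, and ACCACA, its reverse complement. The windows span chr14:56234738-56234843 for Gzmc, chr14:56132678-56132779 for Gzmd, chr14:56120711-56120812 for Gzme and chr14:56211513-56211614 for Gzmf.
Gzmc: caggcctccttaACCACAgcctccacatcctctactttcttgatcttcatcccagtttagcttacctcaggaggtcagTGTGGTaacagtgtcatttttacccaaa
Gzmd: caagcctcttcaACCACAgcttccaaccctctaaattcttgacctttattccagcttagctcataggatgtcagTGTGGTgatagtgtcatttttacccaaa
Gzme: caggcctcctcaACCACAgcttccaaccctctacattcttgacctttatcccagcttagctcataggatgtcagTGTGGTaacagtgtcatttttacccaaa
Gzmf: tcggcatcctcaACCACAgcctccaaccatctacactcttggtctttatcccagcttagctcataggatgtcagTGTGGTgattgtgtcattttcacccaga
Each window was cut around 1 match on either strand, so it holds both by choice. The matches lay 60 bases apart in Gzmc and 56 in the other 3. Over the 250 bases before the start site, Gzmd and Gzme were 94.8% identical, Gzmc was 81.3% identical to Gzmd and 81.8% to Gzme, and Gzmf was 71.5% to 75.4% identical to these 3. The Gzmb promoter, 47.3% to 52.4% identical to the 4, had 2 matches on the forward strand and 0 on the reverse. Of 32851 promoters of the same length, 14% held the motif on at least 1 strand and 0.499% on both. The 4 promoters shown are alike in sequence and were chosen for the levels of their genes. Their matches are therefore not independent, and these shares are no test of the motif. A match describes letters only and does not show that a factor binds there.

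Gzmf reached the highest level of the group, at 796, 30.5, 1362 and 2812 CPM in Havcr2-positive cells against 143, 4.44, 502 and 302 CPM in Havcr2-negative cells (log2 fold change 2.48 ± 0.22, edgeR adjusted p = 1.47e-05). Gzmd stood at 239, 9.66, 144 and 282 CPM against 53.7, 1.11, 73.1 and 25.7 CPM (log2 fold change 2.34 ± 0.28). Gzme stood at 147, 5.2, 57.5 and 241 CPM against 20.8, 1.11, 31.1 and 10.5 CPM (log2 fold change 3.0 ± 0.37), the largest of the genes that met the rule for naming. Each of these 3 genes was lowest in WT anti-PD1 in both classes. A Gzmf UMI was found in 37 of 106, 13 of 266, 13 of 47 and 64 of 124 Havcr2-positive cells, and a Gzme UMI in 11, 2, 2 and 26. Both were rarest in WT anti-PD1.

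Memory and stem-like genes moved the other way. Of 15 listed genes, 14 passed the filter, 0 were higher, 10 were lower (among them Tcf7, Lef1, Ccr7, Slamf6, Bach2 and Klf2) and the median was -1.46. Tcf7 stood at 9.0, 7.43, 9.59 and 16.3 CPM against 143, 194, 119 and 174 CPM (log2 fold change -3.97 ± 0.22, edgeR adjusted p = 2.44e-07). After thinning, a Tcf7 UMI was found in 0 of 105 Havcr2-positive cells in WT IgG, which allows up to 2.86% of cells with a UMI at this depth, and in 0.775%, 4.44% and 1.67% in the other libraries. Among Havcr2-negative cells it was found in 21.2%, 20.7%, 19.8% and 21.7%, and among non-immune cells in 0.187% to 1.5%. Without thinning the Havcr2-positive shares were 3.77%, 2.63%, 4.26% and 6.45% and the Havcr2-negative shares 33.9%, 33.7%, 29.7% and 30.9%. On both scales the share was lower in the Havcr2-positive cells of every library.

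Bach2, a repressor that keeps T cells from effector differentiation, was lower by a smaller margin, with a log2 fold change of -0.99 ± 0.16. Il7r, the survival receptor of memory cells, did not pass the test (0.30 ± 0.12, edgeR adjusted p = 0.127). Further genes named by rule on the lower side were Ifngas1, a long noncoding RNA next to Ifng (-4.36 ± 0.36), Klra7, an inhibitory receptor of the Ly49 family whose members are alike in sequence (-4.14 ± 0.48), the CD30 ligand gene Tnfsf8 (-4.09 ± 0.31), Aff3 (-2.94 ± 0.22), Cmah (-2.80 ± 0.25), Fhit (-2.68 ± 0.34), 1700025G04Rik (-2.21 ± 0.24) and Btla (-2.12 ± 0.33). On the higher side they were Filip1 (2.60 ± 0.36), the G protein regulators Rgs8 (2.46 ± 0.28) and Rgs16 (2.19 ± 0.15) and Serpinb9b (2.13 ± 0.32).

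**Figure D1:**
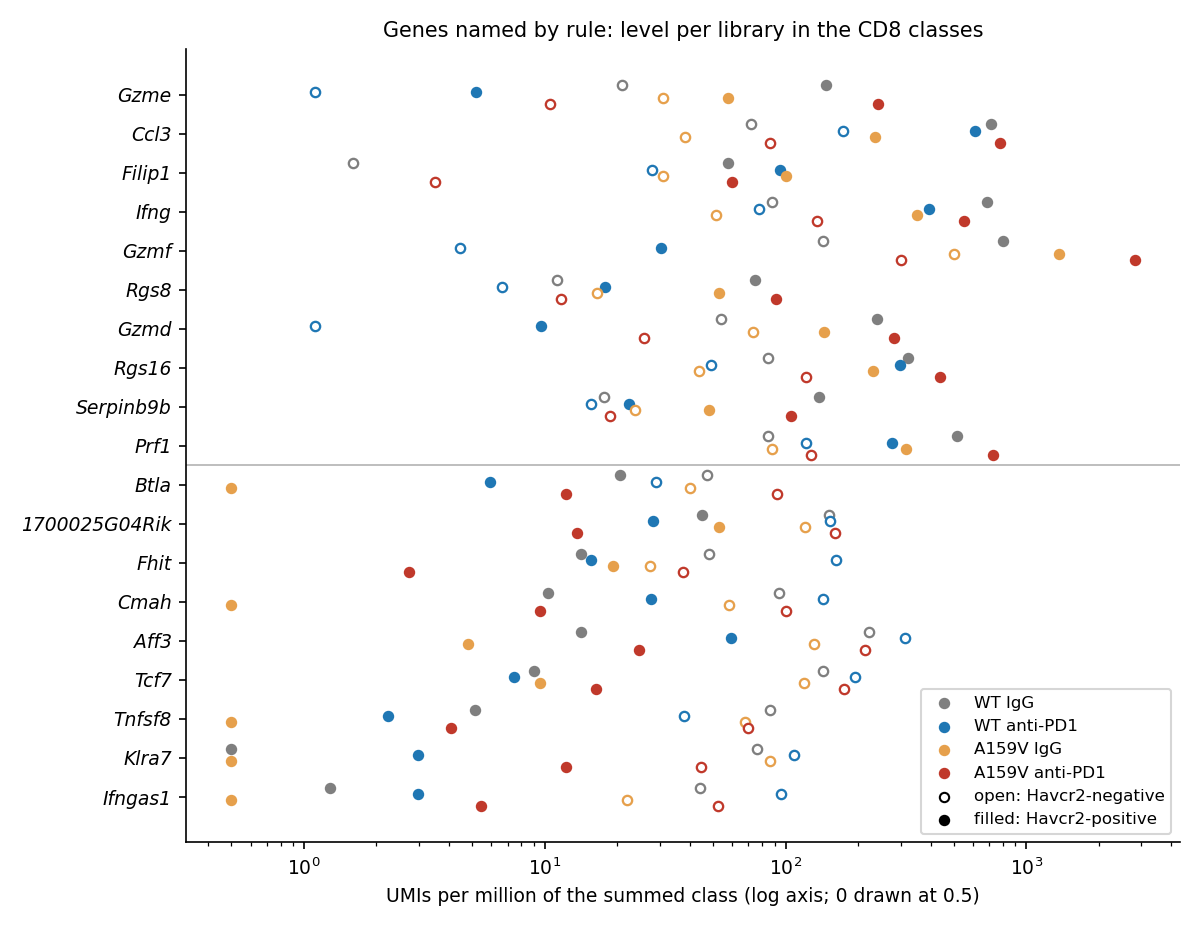
Levels of genes named by rule, in CPM on a log axis with 0 drawn at 0.5, in Havcr2-positive (filled) and Havcr2-negative (open) CD8 T cells of each library (color). Tcf7 lies at 7.43 to 16.3 in the filled points and at 119 to 194 in the open points, and the filled points of Gzmd, Gzme and Gzmf spread from the WT anti-PD1 library at the low end to A159V anti-PD1 at the high end.

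Of 12 inhibitory receptors other than Havcr2, 7 were higher, 2 were lower and the median was 0.96. Those higher were Pdcd1, Lag3, Ctla4, Cd244a, Entpd1, Cd38 and Cd200r1. Pdcd1 stood at 249.5, 273, 119.9 and 209.8 CPM against 123, 107, 100.5 and 120.3 CPM (log2 fold change 1.01 ± 0.15). Lag3, a receptor for MHC class II, stood at 167, 232, 106 and 187 CPM against 74.5, 105, 38.4 and 86.4 CPM (1.23 ± 0.13). Ctla4, which competes with CD28 for its ligands, stood at 314, 412, 408 and 380.1 CPM against 164, 217, 157 and 175 CPM (1.12 ± 0.12). Btla and Cd160, both receptors for HVEM, were lower, Cd160 with a log2 fold change of -1.07 ± 0.24, and Tigit did not pass the test (0.44 ± 0.27).

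After thinning, most single cells held UMIs of few of these receptors. A receptor that a cell carries can be missed at this depth, so low counts do not show how many it expressed. The shares serve only to compare the classes at the same depth. With 7 of these receptors counted after thinning, 21.9%, 22.1%, 22.2% and 21.7% of the Havcr2-positive cells had a UMI of none. Among the Havcr2-negative cells these shares were 54.8%, 43.5%, 57.1% and 51.4%. At least 3 were found in 13.3%, 14.0%, 6.67% and 15.8% against 2.07%, 7.25%, 5.56% and 3.30%. The share without a receptor UMI was lower in the Havcr2-positive cells of every library, and in these cells it ranged from 21.7% to 22.2% between libraries.

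Transcription factors of effector and exhausted T cells were higher for 10 of the 17 that passed the filter and lower for 1, with a median of 0.79. Nr4a2, of the NR4A factors induced by T cell receptor signals, stood at 1064, 394, 993 and 619.9 CPM against 299, 139, 223 and 185 CPM (log2 fold change 1.86 ± 0.12, edgeR adjusted p = 5.95e-07). Nr4a3 (1.72 ± 0.16), Irf4 (1.57 ± 0.19), Nr4a1 (1.40 ± 0.17), Irf8 (1.36 ± 0.17), Prdm1 (1.17 ± 0.18), Bhlhe40 (0.98 ± 0.12), Rbpj (0.91 ± 0.10), Id2 (0.79 ± 0.10) and Tbx21 (0.75 ± 0.12) were higher as well. Eomes, a factor of memory and NK cells, was lower, at 6.43, 58.7, 14.4 and 13.6 CPM against 40.8, 114, 29.2 and 25.7 CPM (-1.19 ± 0.26). Tox, the factor tied most closely to exhaustion, did not pass the test, at 500.3, 618, 882 and 730.2 CPM against 536, 671, 500.5 and 583 CPM (0.27 ± 0.14, edgeR adjusted p = 0.249).

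Of 14 glycolysis genes, 12 were higher and 0 lower, with a median of 0.65. Gapdh stood at 1344, 505, 1463 and 1153 CPM against 798, 369.5, 1023 and 791 CPM (log2 fold change 0.63 ± 0.09). The glucose transporter gene Slc2a3 gave the largest difference of the list (1.03 ± 0.14). Immediate early genes were higher for 9 of 11 and lower for 0, led by the phosphatase gene Dusp1 (0.90 ± 0.13), whereas 0 of 8 heat shock genes passed the test in either direction, with a median of 0.01. Of 8 costimulatory receptors, 5 were higher (Tnfrsf9, Tnfrsf4, Tnfrsf18, Tnfrsf1b, Icos) and 0 lower. Tnfrsf9, which encodes 4-1BB, stood at 884, 236, 676 and 896 CPM against 329, 136, 460.3 and 408 CPM (1.06 ± 0.13).

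Among 13 cytokine receptors 5 were higher, led by the interleukin-2 receptor alpha chain gene Il2ra (1.20 ± 0.17), and 0 were lower. Among 12 homing and residency genes that passed the filter, 3 were higher (Cxcr6, Itgb2, Cd44) and 4 lower (Cxcr3, Cxcr4, Itgb1, Itgb7), with a median of 0.04. Receptors and adaptors shared with NK cells were higher for 6 of 8, among them Klrd1 (0.52 ± 0.10) and Klrc1 (0.73 ± 0.12), which together form the inhibitory CD94-NKG2A receptor. Of 14 T cell receptor signaling genes, 2 were higher (Zap70, Ptpn22), 1 was lower (Prkcq) and the median was 0.01.

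Interferon response genes tended to the lower side, with 6 of 18 lower (among them Ifit1, Ifit3, Iigp1 and Usp18), 1 higher (Ifi27l2a) and a median of -0.35. Iigp1, an interferon-induced GTPase, stood at 51.4, 24.5, 24.0 and 36.8 CPM against 101, 87.7, 91.3 and 112 CPM (log2 fold change -1.43 ± 0.19). Of 20 cell cycle genes, 3 were higher (Pcna, Birc5, Ube2c), 0 were lower and the median was 0.44. Most cell cycle genes, among them Mki67 (0.42 ± 0.20) and Top2a (0.22 ± 0.17), did not pass the test.

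**Figure D2:**
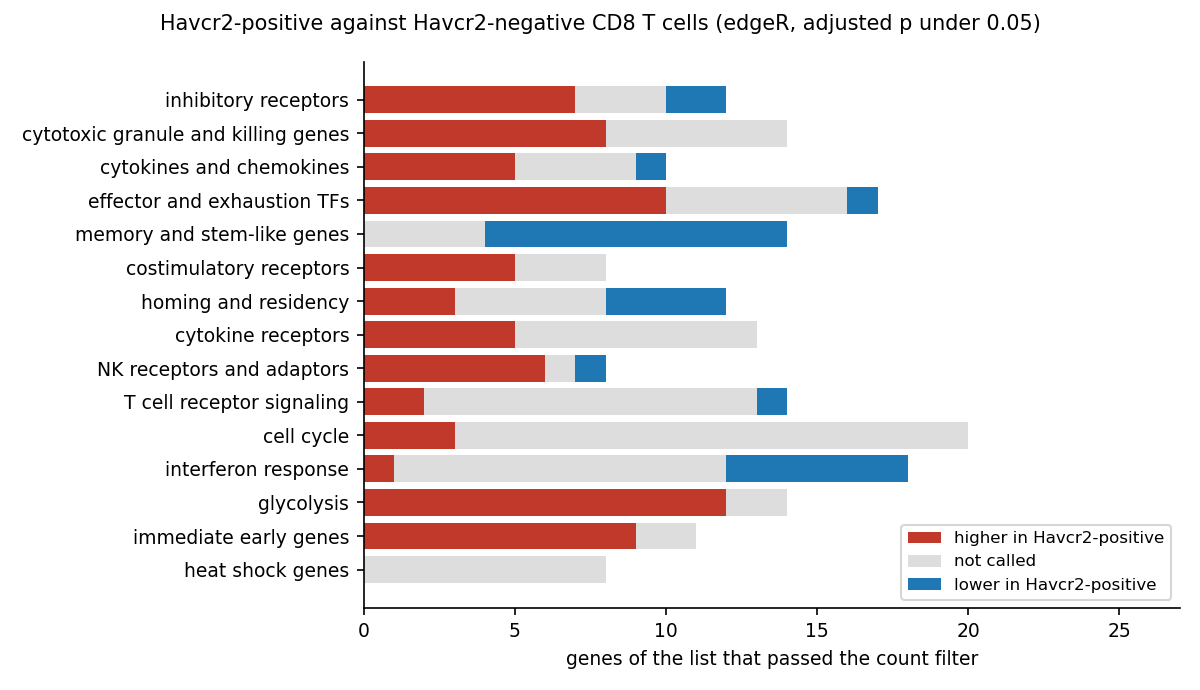
Number of genes in each list that passed the count filter, split into those higher (red), not called (gray) and lower (blue) in Havcr2-positive than in Havcr2-negative CD8 T cells (edgeR, adjusted p under 0.05). Glycolysis (12 of 14 higher) and memory and stem-like genes (10 of 14 lower) lie at the opposite ends, and heat shock genes show no call.

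Markers of other cells differed between the classes in both directions. The tumor line marker Cald1, the endothelial marker Pecam1 and the NK cell marker Eomes were lower in the Havcr2-positive cells, and markers of macrophages and dendritic cells were among those higher. The 10 macrophage markers summed to 761, 374, 561 and 719 CPM in Havcr2-positive cells and to 259, 226, 329 and 401 CPM in Havcr2-negative cells, and 4 of the 5 that passed the filter (Lyz2, Apoe, Itgam, Ctss) were higher. At most 3 of the 10 were at 0 in a library. Of 8 dendritic cell markers the MHC class II genes H2-Aa and H2-Eb1 passed the filter and were higher, and the list summed to 885, 334, 273 and 866 CPM against 272, 259.7, 347 and 172 CPM. A Lyz2 UMI was found in 15, 38, 3 and 15 Havcr2-positive cells. A doublet caller marked 17 of 106, 19 of 266, 6 of 47 and 22 of 124 Havcr2-positive cells. Of the Havcr2-negative cells it marked 11 of 245, 9 of 205, 14 of 145 and 13 of 233. Among all barcodes given to the caller the marked shares were 6.0%, 5.6%, 6.7% and 7.3%. In each library the marked share was thus higher in the Havcr2-positive than in the Havcr2-negative cells, and the cause was not tested.

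Without barcodes that held a UMI of Lyz2, Csf1r, Adgre1, H2-Aa or H2-Eb1, 75, 196, 41 and 88 Havcr2-positive cells remained, and 415 genes were higher and 346 lower of 6878 tested. Without the marked doublets the counts were 402 and 367. Ctss, H2-Aa and H2-Eb1 then stood at log2 fold changes of -0.40, -0.61 and -1.22, the opposite direction. The part of other cells' RNA in single gene differences was not tested further. The 7 NK cell markers summed to 553, 538, 106 and 170.3 CPM against 180.2, 421, 172 and 190.4 CPM, and gamma-delta T cell markers (8 genes) reached 182 CPM in A159V IgG against 13 to 19 CPM elsewhere. B cell and red cell markers did not pass the filter.

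A comparison with other immune classes places these features among lymphocytes of the same tumors. NK cells (931 barcodes) and regulatory T cells (407 barcodes) were gated on their own markers, and each was compared with the Havcr2-positive CD8 T cells in the same way. Against NK cells, 741 of 8705 genes (8.51%) were higher and 621 (7.13%) lower in the Havcr2-positive cells. Against regulatory T cells, 471 of 7289 genes (6.46%) were higher and 649 (8.9%) lower. The counts against NK cells were 470 and 408 without A159V anti-PD1, and those against regulatory T cells were 306 and 464 without WT IgG and 241 and 342 without A159V anti-PD1.

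NK cells carried more granule RNA and less cytokine RNA. Of 15 killing genes that passed the filter, 10 were lower and 1 higher in Havcr2-positive CD8 T cells than in NK cells, with a median of -1.12. Gzma, which encodes a tryptase of the granules, stood at 385, 456, 4.80 and 45 CPM against 3683, 2992, 2225 and 2780 CPM (log2 fold change -4.18 ± 0.57), and Prf1 at 514, 276, 316.5 and 725 CPM against 819.9, 409, 852 and 966 CPM (-0.76 ± 0.17). Gzmb did not pass the test (-0.37 ± 0.34, edgeR adjusted p = 0.542). Ifng was higher by a log2 fold change of 3.04 ± 0.18, Ccl4 by 2.92 ± 0.18 and Ccl3 by 3.22 ± 0.26, with Ifng at only 38.4 to 112 CPM in NK cells.

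T cell features separated the classes as well. Pdcd1 was higher than in NK cells by 4.52 ± 0.37 on the log2 scale, Lag3 by 3.03 ± 0.24, Ctla4 by 2.54 ± 0.18, Nr4a2 by 3.03 ± 0.13 and Tox by 2.11 ± 0.35. Of 14 T cell receptor signaling genes 12 were higher and 0 lower. Gzmk, a granzyme of memory-like T cells, was higher (4.73 ± 0.35), and the adaptor gene Tyrobp (-3.75 ± 0.23) and Eomes (-3.06 ± 0.29) were lower.

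Against regulatory T cells the killing genes were higher for 9 of 11 and lower for 1, with a median of 3.84. Prf1 was higher by a log2 fold change of 4.92 ± 0.29 and Ifng by 6.68 ± 0.41, with Ifng at 16.5, 2.83, 0 and 0 CPM in regulatory T cells. Pdcd1 was higher (2.39 ± 0.29), whereas Ctla4 was lower (-1.88 ± 0.19), as were Tnfrsf4 (-3.62 ± 0.34), Tnfrsf18 (-1.79 ± 0.23), Il2ra (-2.74 ± 0.18), Icos (-1.80 ± 0.22) and the transcription factor genes Ikzf2 (-2.76 ± 0.43) and Maf (-4.08 ± 0.40). Gzmb did not pass the test (0.39 ± 0.14, edgeR adjusted p = 0.0812), and regulatory T cells held 1802, 1200.4, 1354 and 1433 CPM of it. Lag3 (0.74 ± 0.24), Entpd1 (-0.08 ± 0.18) and Tox (-0.13 ± 0.18) did not pass the test either.

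The Havcr2-positive share of the CD8 T cells was highest in WT anti-PD1. In WT tumors they made up 30.2% of the gated CD8 T cells under IgG (95% exact binomial interval 25.4% to 35.3%, 106 of 351) and 56.5% under anti-PD1 (51.9% to 61.0%, 266 of 471). In A159V tumors they made up 24.5% under IgG (18.6% to 31.2%, 47 of 192) and 34.7% under anti-PD1 (29.8% to 39.9%, 124 of 357). The share was 1.87 times as high in WT anti-PD1 as in WT IgG (Katz interval 1.57 to 2.23) and 1.42 times as high in A159V anti-PD1 as in A159V IgG (1.07 to 1.89). Between A159V IgG and WT IgG the fold was 0.811 (0.604 to 1.09), an interval that includes 1. With the gate applied to thinned counts, which matches depth, the shares were 17.8%, 42.7%, 19.1% and 20.5%. The fold was then 2.39 (1.77 to 3.24) for WT anti-PD1 over WT IgG, 1.07 (0.681 to 1.69) for A159V anti-PD1 over A159V IgG and 1.07 (0.675 to 1.70) for A159V IgG over WT IgG. The interval of the A159V pair also included 1 without doublets (1.33, 0.973 to 1.81) and without barcodes that held a myeloid UMI (1.27, 0.926 to 1.75). With at least 2 Havcr2 UMIs the shares were 16.5%, 39.7%, 11.5% and 19.9%. The majority in WT anti-PD1 thus held at 1 UMI without thinning and not under these 2 other gates. In the thinned gate the exclusion genes were read from thinned counts too, so a cell could pass after its UMI of such a gene was lost. The anti-PD1 comparisons each use their own IgG library, and the genotype comparison uses both of these again.

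As a share of barcodes over 500 genes the Havcr2-positive cells stood at 1.45%, 3.89%, 0.578% and 1.40%. On this denominator A159V IgG over WT IgG gave 0.398 (0.282 to 0.560), WT anti-PD1 over WT IgG 2.68 (2.14 to 3.34) and A159V anti-PD1 over A159V IgG 2.42 (1.73 to 3.38). For the Havcr2-negative cells these 3 folds were 0.531 (0.433 to 0.650), 0.892 (0.743 to 1.07) and 1.47 (1.20 to 1.81). The remixing of CD45+ and CD45- cells and the stroma of the WT anti-PD1 library enter this denominator, and their part was not tested. The median depth of the Havcr2-positive cells was 4092.5 UMIs in WT anti-PD1 and 6519.5 UMIs in WT IgG, and it was 5221.5 UMIs in A159V anti-PD1 and 3139 UMIs in A159V IgG. Depth was thus lower under anti-PD1 in WT and higher under anti-PD1 in A159V.

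**Figure D3:**
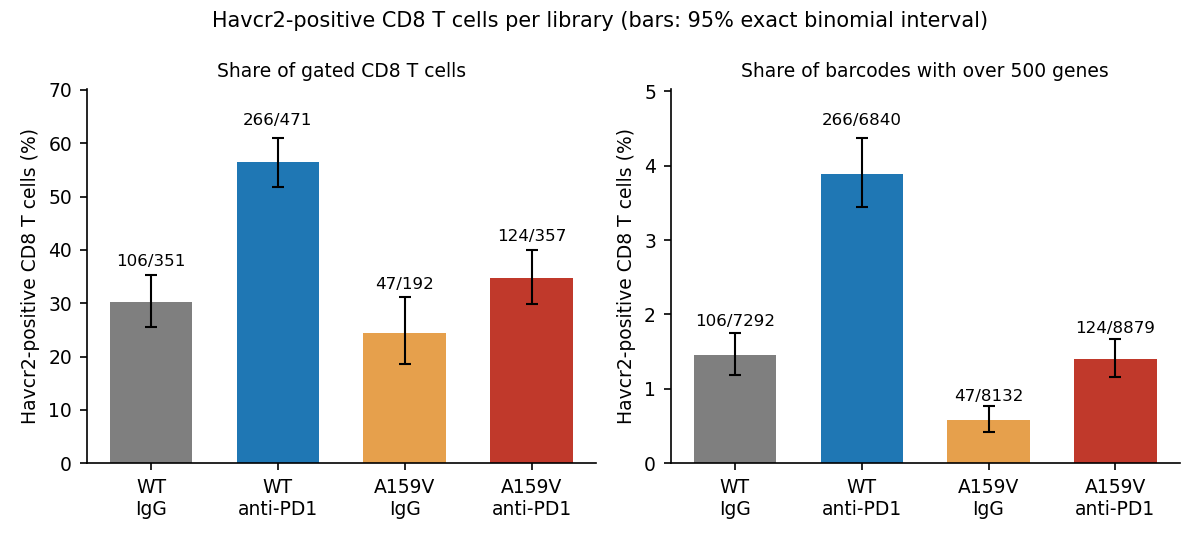
Havcr2-positive CD8 T cells in each library as a percent of gated CD8 T cells (left) and of barcodes with more than 500 genes (right), as bars from 0 with 95% exact binomial intervals and the cell numbers above. WT anti-PD1 is the highest bar in both panels (56.5% and 3.89%) and A159V IgG the lowest (24.5% and 0.578%).

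The share of cycling cells separated WT anti-PD1 from the rest. A cell was counted as cycling when it held at least 3 UMIs of the 20 cell cycle genes after thinning. In WT this was 44.8% (35.0% to 54.8%) of the Havcr2-positive cells under IgG and 25.6% (20.4% to 31.4%) under anti-PD1. In A159V it was 46.7% (31.7% to 62.1%) under IgG and 47.5% (38.3% to 56.8%) under anti-PD1. The unthinned shares were 83.0%, 66.9%, 68.1% and 83.1%. The fold of WT anti-PD1 over WT IgG was 0.571 (0.424 to 0.769), and those of A159V IgG over WT IgG (1.04, 0.715 to 1.52) and of A159V anti-PD1 over A159V IgG (1.02, 0.707 to 1.47) include 1. Havcr2-negative cells were at 39.0%, 21.8%, 50% and 29.7%.

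Levels in the Havcr2-positive cells were then compared between pairs of libraries, as log2 ratios of CPM + 1 for genes that reached 50 CPM in either library. These ratios come from 1 library per group and carry no test. A159V IgG over WT IgG and WT anti-PD1 over WT IgG share the WT IgG library, and A159V anti-PD1 over A159V IgG shares A159V IgG with the first. In bulk sums over a class, fewer cells with an RNA and less RNA per cell cannot be told apart.

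Between A159V IgG and WT IgG, 164 of 4029 genes (4.07%) were at least 2-fold higher and 172 (4.27%) at least 2-fold lower, with a median log2 ratio of 0.03. Of 9 cytokines and chemokines that reached 50 CPM, 0 were at least 2-fold higher and 4 at least 2-fold lower, with a list median of -0.97. Ccl3 stood at 235 CPM in A159V IgG and 715 in WT IgG (log2 ratio -1.60, counting interval -2.02 to -1.18), and Tnf, the tumor necrosis factor gene, at 19.2 and 79.7 CPM (-2.0, -3.39 to -0.61). Ifng stood at 350.1 and 686 CPM. Of 13 killing genes, 4 were at least 2-fold lower (Gzma, Gzmc, Gzme, Serpinb9) and 0 higher, with a median of -0.60.

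Gzma gave the largest ratio on the lower side, at 4.80 CPM in A159V IgG and 385 in WT IgG (-6.06, -8.40 to -3.71). These levels rest on 1 UMI in 1 of 47 cells and 299 UMIs in 15 of 106 cells. The integrin alpha 4 gene Itga4 was higher, at 609 and 103 CPM (2.55, 2.15 to 2.95), found in 38 of 47 and 31 of 106 cells. Maf, a factor that drives interleukin-10, was at 115 and 14.1 CPM (2.94, 1.96 to 3.92), found in 15 and 9 cells. Pdcd1 was at 119.9 and 249.5 CPM (-1.05, -1.65 to -0.46). Of 7 inhibitory receptors that reached 50 CPM, 1 was at least 2-fold higher and 1, Pdcd1, lower, with a median of 0.38. With each cell given the same weight 2 were at least 2-fold higher, 0 were lower and the median was 0.85.

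Of 18 interferon response genes, 4 were at least 2-fold lower (Ifit3, Gbp2, Iigp1, Usp18) and 0 higher, with a median of -0.71, which became -0.40 without barcodes that held a myeloid UMI and -0.27 with each cell given the same weight. Iigp1 was at 0.92 under the thinned gate, on 1 UMI in each library. Of 20 cell cycle and 14 glycolysis genes 0 passed 2-fold in either direction. Bach2 stood at 52.8 and 219 CPM (-2.03, -2.89 to -1.17) in 6 and 52 cells. Other genes named by rule rested on few cells. Ptcra, the pre-T cell receptor alpha gene, was at 129.5 CPM in 3 cells and at 0 in WT IgG, at least 33.6-fold higher when the 0 is set to 3 UMIs. Lcn2, Ereg and Ces4a came from 1 of 47 cells each, against 0 of 106 in WT IgG. Their bounds of 28.6-fold, 21.1-fold and 16.2-fold count UMIs, and 1 cell sets no bound on a difference between libraries. Slpi (3.28, 2.46 to 4.11), Ptgs2 (3.11, 2.14 to 4.07) and Golga3 (2.57, 1.5 to 3.64) came from 4, 7 and 5 of 47 cells.

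On the lower side the rule named the chemokine gene Ccl1, with 45 UMIs in WT IgG and 0 in A159V IgG, at least 4.02-fold lower. It also named Serpine2 (-3.78, -6.14 to -1.41), Igfbp4 (-3.68, -5.51 to -1.85), Cited2 (-3.06, -4.90 to -1.22), Fgf13 (-2.68, -4.06 to -1.31), Ogfr (-2.51, -4.36 to -0.65) and Fcgr1 (-2.41, -4.27 to -0.55). Each of these rests on 1 to 4 UMIs in A159V IgG. The 105 Igfbp4 UMIs of WT IgG came from 3 of 106 cells, against 1 of 47 cells with a UMI in A159V IgG. Markers of the tumor line were higher in A159V IgG for the 4 of 6 that reached 50 CPM, summing to 388 CPM against 126. Of markers of other cells that reached 50 CPM, those of gamma-delta T cells were higher for 2 of 2 (median 3.42, 182 and 19.3 CPM in sum). Dendritic cell markers were lower for 2 of 2 (median -1.80, 273 and 885 CPM), and NK cell markers for 1 of 2 (106 and 553 CPM). Of 3 macrophage markers Lyz2 was lower (91.1 and 346 CPM) and Apoe higher (254 and 77.2 CPM). The part of these cells' RNA in the ratios was not tested.

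Between WT anti-PD1 and WT IgG, 630 of 4305 genes (14.6%) were at least 2-fold higher and 470 (10.9%) lower, more than in the other pairs under this gate. Under the thinned gate the counts were 975 and 627 here, 888 and 975 for A159V IgG over WT IgG and 1077 and 1103 for A159V anti-PD1 over A159V IgG, and this pair had the fewest. Under that gate WT anti-PD1 summed to 175500 UMIs, WT IgG to 64500, A159V anti-PD1 to 69000 and A159V IgG to only 33000. The pairs thus differed in depth, and the part of depth in this ranking was not tested. The median log2 ratio over all genes was 0.26 and changed to 0.11 with median-of-ratios scaling, under which 447 genes were higher and 634 lower. The share of higher genes among those past 2-fold was 57.3% with CPM and 41.4% with median-of-ratios scaling. Ratios in this comparison are therefore read against 0.26, but the counts of genes past 2-fold are taken against 0. The lists described next kept their direction under both scalings. With median-of-ratios scaling 6 homing and residency genes were at least 2-fold higher. At least 2-fold lower were 15 cell cycle, 11 interferon response and 7 glycolysis genes.

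Homing and residency genes were higher. Of 11 that reached 50 CPM, 8 were at least 2-fold higher and 0 lower, with a median of 1.41. Itga1, the collagen-binding integrin alpha 1 of tissue-resident T cells, stood at 387 CPM in WT anti-PD1 and 54.0 in WT IgG (log2 ratio 2.82, 2.37 to 3.26), and at 81.5 and 128 CPM in A159V IgG and A159V anti-PD1. A thinned Itga1 UMI was found in 40.7% of WT anti-PD1 cells and in 3.81% to 16.7% in the other libraries, against 0.726% to 5.06% of non-immune cells. Unthinned, Itga1 was found in 63.9% of WT anti-PD1 cells and in 25.5% to 41.1% in the other libraries. In Havcr2-negative cells Itga1 was at 297 and 62.5 CPM in WT anti-PD1 and WT IgG, and in NK cells at 111 and 112 CPM. The chemokine receptor genes Cxcr6 (706 and 241 CPM, ratio 1.55, 1.32 to 1.77), Ccr2 (307 and 59.2 CPM, ratio 2.36, 1.92 to 2.79) and Cxcr3 (2.89, 1.75 to 4.04) were higher as well.

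The granzyme genes of the chromosome 14 cluster were lower. Gzmc stood at 6.69 CPM in WT anti-PD1 and 875 in WT IgG (log2 ratio -6.83, -7.66 to -6.00), in 9 of 266 and 38 of 106 cells. Gzmf (-4.66, -5.11 to -4.22), Gzme (-4.57, -5.51 to -3.64) and Gzmd (-4.49, -5.23 to -3.75) followed. Gzmb, which lies beside them, was at 1592 and 1988 CPM, and Prf1 at 276 and 514 CPM. Gzmk was higher, at 103 and 36.0 CPM (1.49, 0.92 to 2.07), as was Fasl, a death receptor ligand, at 255 and 102 CPM (1.32, 0.97 to 1.67). In NK cells of the same libraries Gzmc was at 519 and 8319 CPM and Gzmb at 702 and 3349 CPM.

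Cell cycle genes were lower, with 12 of 20 past 2-fold, 0 higher and a median of -1.52. Ube2c, which directs proteins for destruction in mitosis, stood at 31.9 and 278 CPM (-3.08, -3.54 to -2.62) and Mki67 at 52.7 and 149 CPM (-1.48, -1.90 to -1.06). The histone genes Hist1h2ae (-3.91, -4.75 to -3.08) and Hist1h1b (-3.41, -3.98 to -2.84), made in S phase and alike within their family, were among those named by rule. Under the thinned gate these histone genes stood at 2.74 and 3.63, the opposite direction, on 1 and 2 UMIs in WT anti-PD1 and 0 in WT IgG. Summed over the list the cell cycle genes stood at 4322, 1968, 4839 and 4623 CPM in Havcr2-positive, 3322, 2118, 5334 and 2968 CPM in Havcr2-negative and 2341, 2095, 3057 and 2119 CPM in NK cells. Glycolysis genes were lower for 6 of 14 and higher for 0, with a median of -0.77, Gapdh at 505 and 1344 CPM.

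Interferon response genes were lower for 10 of 18 and higher for 1, Gbp4, with a median of -1.39. Without barcodes that held a myeloid UMI 7 were lower with a median of -0.80, and without doublets 8 with a median of -0.81. Isg15, an early interferon-stimulated gene, stood at 73.5 and 478 CPM (-2.69, -3.00 to -2.37) and Ifi27l2a at 558 and 2293 CPM (-2.04, -2.16 to -1.91). The list was lowest in WT anti-PD1 in the other classes too. The 18 genes summed to 2013 CPM in WT anti-PD1 against 4274 to 5341 CPM in the other libraries in Havcr2-positive cells, to 2079 against 5479.8 to 6016 CPM in Havcr2-negative cells, to 935 against 1863 to 2082 CPM in NK cells and to 2914 against 8581 to 10312 CPM in regulatory T cells. A thinned Isg15 UMI was found in 8.49% of non-immune cells in WT anti-PD1 and in 52.0% to 56.7% of those in the other libraries, and unthinned in 32.9% against 95.4% to 97.5%.

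Factors and receptors of T cells split within their lists. Id2 (1458 and 507 CPM, ratio 1.52), Prdm1 (1.72), Irf4 (1.22), Eomes (3.01) and Maf (2.38) were at least 2-fold higher, and Nr4a2 (-1.43), Irf8 (-2.0) and Ikzf2 (-1.79) at least 2-fold lower, of 17 factors with a median of 0.39. Under the thinned gate Maf was at -1.41, on 5 UMIs in each library. Of 8 costimulatory receptors, Cd226 (525 and 116 CPM, ratio 2.17), Icos (630 and 186 CPM, 1.75) and Cd28 (1.61) were higher, and the TNF receptor family members Tnfrsf4 (-2.78), Tnfrsf9 (-1.90) and Tnfrsf18 (-1.28) were lower. Egr2 and Egr3, induced by T cell receptor signals, led the higher genes named by rule, at 70.6 and 5.14 CPM (3.54, 2.32 to 4.76) and at 86.9 and 9.0 CPM (3.14, 2.14 to 4.13).

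Among cytokines, Csf1 (175 and 38.6 CPM, ratio 2.15), Tnf (174 and 79.7 CPM, 1.11) and Ccl5 (2116 and 1019 CPM, 1.05) were at least 2-fold higher and Xcl1 (20.1 and 83.6 CPM, -2.01) lower, of 10. With median-of-ratios scaling Tnf (0.97) and Ccl5 (0.91) fell short of 2-fold, as they do when read against 0.26, and 1 cytokine was higher. In the same pair Ifng was at 395 and 686 CPM. Of 7 inhibitory receptors that reached 50 CPM, Cd200r1 was past 2-fold (1.77, 0.97 to 2.57). Pdcd1 was at 273 and 249.5 CPM. The other genes named by rule were Arhgef12 (3.06), Arl4d (2.82) and Lfng (2.78) on the higher side and Cyp51 (-4.25) and Dscam (-4.02) on the lower. Stromal markers were higher for the 5 of 6 that reached 50 CPM, with a median of 6.01, and dendritic cell markers were lower for the 2 that did (median -1.70, 334 and 885 CPM in sum), as was Lyz2 (57.9 and 346 CPM). Their part in these ratios was not tested. Tyrobp was lower (-2.73) and 0.90 without barcodes that held a myeloid UMI.

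**Figure D4:**
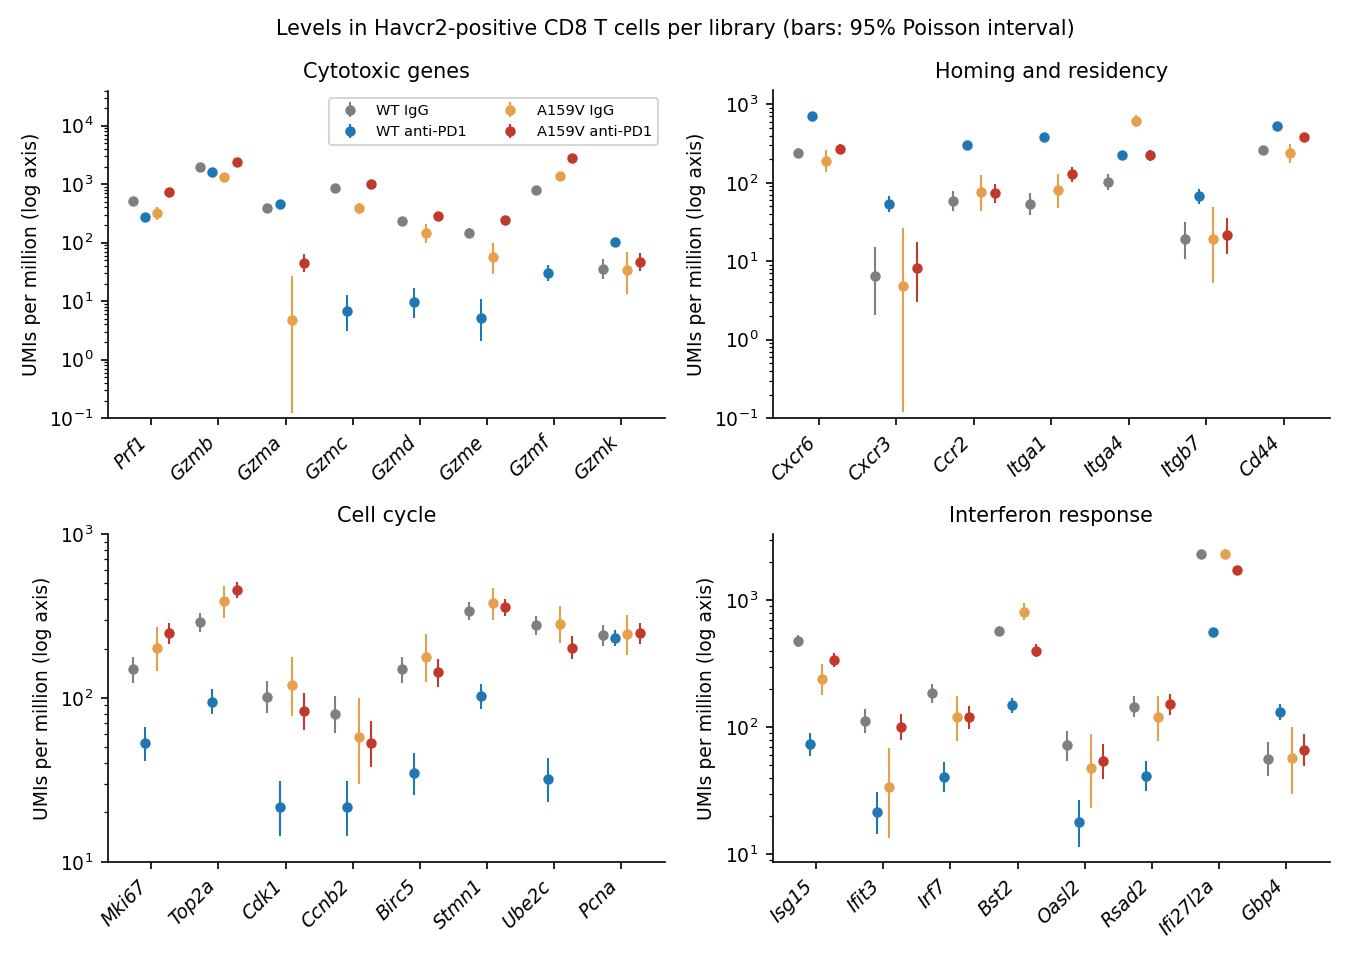
Levels in Havcr2-positive CD8 T cells of each library (color), in CPM on a log axis with 95% Poisson intervals, for genes of 4 lists. WT anti-PD1 lies lowest for Gzmc, Gzmd, Gzme and Gzmf, for most cell cycle genes and for most interferon response genes, and highest for most homing genes, while Pcna lies at 232 to 248 in all 4 libraries.

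Between A159V anti-PD1 and A159V IgG, 250 of 4122 genes (6.07%) were at least 2-fold higher and 165 (4%) at least 2-fold lower, with a median log2 ratio of 0.05. Of 12 killing genes that reached 50 CPM, 6 were at least 2-fold higher (Prf1, Gzmc, Gzme, Gzmf, Serpinb9, Serpinb6b) and 0 lower, with a median of 1.01. Prf1 stood at 725 and 316.5 CPM (log2 ratio 1.19, 0.82 to 1.56), Gzmf at 2812 and 1362 CPM (1.05, 0.87 to 1.22) and Serpinb9, the inhibitor that shields cells from granzyme B, at 381 and 95.9 CPM (1.98, 1.33 to 2.63). Gzmf was found in 64 of 124 and 13 of 47 cells. With each cell given the same weight 3 were at least 2-fold higher and the median was 0.62, and without barcodes that held a myeloid UMI 8 were higher and the median was 1.61.

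Of 9 cytokines and chemokines 4 were at least 2-fold higher and 1 lower, with a median of 0.65, which became 0.16 without barcodes that held a myeloid UMI and 0.33 with each cell given the same weight. Ccl3 stood at 779 and 235 CPM (1.73, 1.31 to 2.14) and Tnf at 84.5 and 19.2 CPM (2.08, 0.69 to 3.47). Ccl5 was the lower one, at 541 and 1515 CPM (-1.48, -1.70 to -1.27). Xcl1 (266 and 38.4 CPM, ratio 2.76) came from 9 of 124 and 3 of 47 cells and was -0.41 in cells with at least 2 Havcr2 UMIs. Ifng was at 550.4 and 350.1 CPM, short of 2-fold.

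Fewer genes of the other lists passed 2-fold. Of 20 cell cycle genes 1 was at least 2-fold higher, Ccna2 (1.14, 0.11 to 2.18), with a median of -0.09, and of 14 glycolysis genes 0 passed 2-fold in either direction. Homing genes gave 0 higher and 1 lower of 9, Itga4, at 225 and 609 CPM (-1.43, -1.77 to -1.10). Icos (391 and 149 CPM, ratio 1.39) and Cd27 (1.12) were higher, as were Bach2 (166 and 52.8 CPM, 1.64), Satb1 (1.14) and Lef1 (1.04), and Id3 was lower (-1.75). Id3 was at 3.95 under the thinned gate, on 1 UMI in A159V anti-PD1 and 0 in A159V IgG. Of 7 inhibitory receptors 0 passed 2-fold. Of 17 interferon response genes 4 were higher (Ifit1, Ifit3, Gbp2, Gbp7) and 1 lower (Bst2), with a median of 0.33, which became 1 higher, 5 lower and -0.07 without barcodes that held a myeloid UMI.

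Markers of other cells moved with this pair as well. Of those that reached 50 CPM, dendritic cell markers were higher in A159V anti-PD1 for 2 of 2 (median 1.78, 866 and 273 CPM in sum). Tumor line markers were lower for 4 of 4 (median -2.81, 64.0 and 388 CPM) and gamma-delta T cell markers for 2 of 2 (median -4.25, 17.7 and 182 CPM). Of 3 macrophage markers Lyz2 was higher and Apoe lower. Their part in the ratios of killing and cytokine genes was not tested. The genes named by rule on the higher side included genes of other cell types. Mmp12, a macrophage elastase, was at 207 CPM in 4 of 124 cells and at 0 in A159V IgG. Its bound of at least 14.4-fold counts UMIs and takes no account of the few cells. Arg1 (3.19, 0.80 to 5.57) rested on 1 UMI in A159V IgG. Wdfy4 in 10 cells (at least 4.07-fold), the EGF receptor ligand gene Areg in 8 cells (at least 3.79-fold) and Vmn2r96 in 21 cells (at least 3.6-fold) were at 0 in A159V IgG. Serpine2 (148 and 4.80 CPM, ratio 4.69, 2.33 to 7.04), Fmnl2 (3.69, 1.32 to 6.06) and Exph5 (3.49, 1.11 to 5.86) rested on 1 UMI each in A159V IgG. On the lower side were Ptcra (-5.79, -7.51 to -4.07), Slpi (-3.30, -4.14 to -2.46), Fscn1 (-2.59, -3.83 to -1.35) and Msmo1 (-2.38, -3.24 to -1.52), next to Tcim (-3.40, -4.96 to -1.85), Lcn2, Ereg and Ces4a from 1 A159V IgG cell each.

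**Figure D5:**
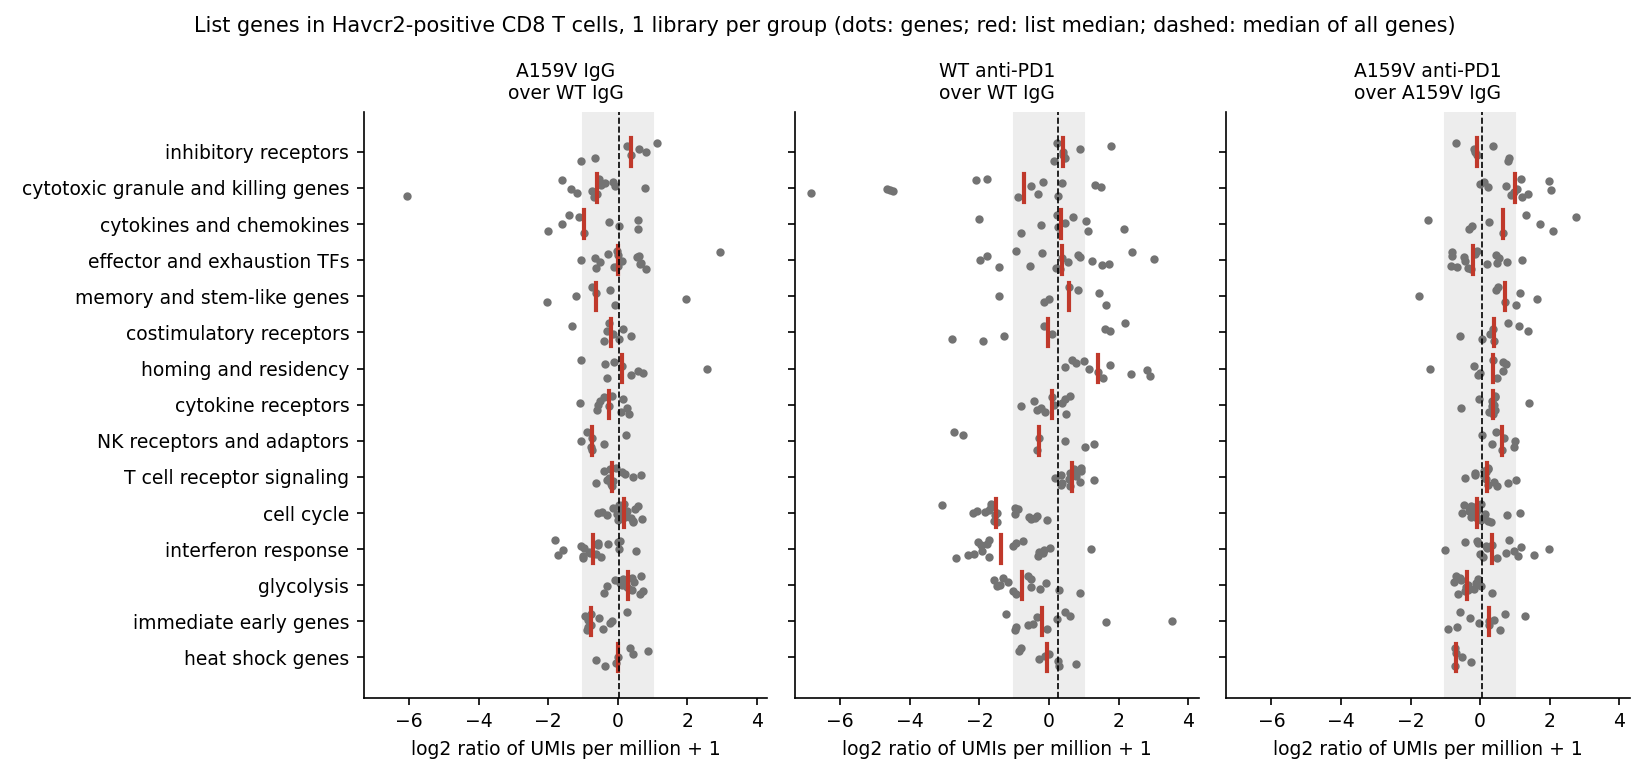
Log2 ratio of CPM + 1 for list genes that reached 50 CPM in Havcr2-positive CD8 T cells, in 3 pairs of libraries (dots: genes; red bars: list medians; dashed line: median of all genes; gray band: under 2-fold). Under anti-PD1, killing genes have a median of -0.71 in WT and 1.01 in A159V, and cell cycle genes -1.52 in WT and -0.09 in A159V.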

How the data were processed

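The 4 samples were MC38 tumors profiled by 10x 3′ single-cell RNA-seq. The authors deposited filtered matrices of UMI counts per gene and barcode, for which the file headers name Cell Ranger 7.2.0 and the submitters' processing notes 5.0.1, on mm10 with intron reads counted, before their removal of ambient RNA and doublets. The files list 32285 genes. The total per library and the depth per class are given above; these set the precision, and intervals cover counting error only.

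Members were gated on UMIs as described, non-immune cells by 0 UMIs of Ptprc with a Hmga2 UMI or at least 5 UMIs of Col1a1, Col1a2 and Col3a1, NK cells by at least 2 UMIs of Ncr1 and Klrb1c with no Cd3 or Cd8b1 UMI, and regulatory T cells by at least 2 Cd3 UMIs and 1 Foxp3 UMI with no Cd8 UMI. The members and gene lists were chosen with earlier results of these data known. UMIs were summed per library and class and classes were compared with edgeR 4.0.16 in R 4.3.3 (TMM, quasi-likelihood, library as block, default expression filter, Benjamini-Hochberg adjusted p under 0.05). The test was checked on simulated data. Libraries were compared as log2(CPM + 1) ratios of genes with at least 50 CPM in either, with no test. Genes at 0 in a library were bounded at 3 UMIs there, which counts UMIs and not cells. Named genes were the list genes, the 10 highest and 10 lowest called genes against Havcr2-negative cells (same direction in 4 of 4 libraries, at least 50 CPM in the higher class) and the 8 highest and 8 lowest ratios of each pair of libraries. The last 2 sets left out gate, mitochondrial, ribosomal, hemoglobin, immunoglobulin, T cell receptor and sex-linked genes and genes over 3 times higher in barcodes without a Cd3 UMI. Values of some genes on the lists are not reported here. Doublets were marked with Scrublet (scanpy 1.11.5; 0.8% per 1000 barcodes) and kept, except in an alternative. Other software was Python 3.11.15, NumPy 2.4.6, SciPy 1.17.1, pandas 2.3.3 and DESeq2 1.42.0. Promoters came from RefSeq (GRCm38.p6). Alternatives covered the gate, thinning, filters, scaling, pseudocount, tool, block and each library left out, and the exclusion of barcodes with a myeloid UMI was added after seeing the data.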

Additional observations from a re-analysis of the deposited data

Results flagged for a closer look

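The search covered the listed genes, without the markers of other cells, and the genes named by rule for pairs of libraries. For 12 of these the log2 ratio of anti-PD1 over IgG in Havcr2-positive CD8 T cells had opposite signs in WT and A159V. Both ratios were at least 1 in size, with counting intervals clear of 0. Some of the searched genes were named for extreme ratios in the same pairs, and no share over all genes is given. With 1 library per group the difference was not tested. Genes lower under anti-PD1 in WT and higher in A159V were the granzyme genes Gzmc (-6.83 and 1.38), Gzmf (-4.66 and 1.05) and Gzme (-4.57 and 2.05), whose reads may be split between copies. The granzyme inhibitor gene Serpinb9 (-2.09 and 1.98) and Serpinb6b (-1.77 and 1.18) went the same way. So did the Fc receptor gene Fcgr1 (-3.37 and 2.94), Ifit3 (-2.32 and 1.56), the chemokine gene Xcl1 (-2.01 and 2.76), Irf8 (-2.0 and 1.22) and the cyclin gene Ccna2 (-1.48 and 1.14). Ccl5 (1.05 and -1.48) and Itga4 (1.14 and -1.43) went the other way. With median-of-ratios scaling Ccl5 (0.91) and Itga4 (0.99) fell short of 1 in WT, and 10 of the 12 genes kept opposite signs at a size of at least 1. With at least 2 Havcr2 UMIs Xcl1 was at -0.84 in WT and -0.41 in A159V, the same sign. Under the thinned gate 7 of the 12 kept opposite signs at a size of at least 1, and with each cell given the same weight 9. Without doublets 10 did, and without barcodes that held a myeloid UMI 10. In both of these settings Fcgr1 and Ifit3 fell short. Fcgr1 was at -0.31 in WT without doublets and at -0.60 without barcodes that held a myeloid UMI. In the same order Ifit3 was at 0.80 and 0.49 in A159V.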

How the results depend on the processing

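The fold of the Havcr2-positive share, A159V IgG over WT IgG, was 0.398 of barcodes over 500 genes and 0.482 of barcodes with a Ptprc UMI. WT anti-PD1 over WT IgG gave 2.68 and 2.76 on these denominators, 2.40 with at least 2 Havcr2 UMIs and 2.39 with the thinned gate, and A159V anti-PD1 over A159V IgG gave 2.42 and 1.90. The cycling share of WT anti-PD1 over WT IgG was 0.402 at 1000 UMIs, 0.806 without thinning, 0.794 at 2 UMIs and 0.299 at 5 UMIs of the list.

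Counts of genes past 2-fold moved most with the gate and the CPM minimum. Between A159V IgG and WT IgG, higher and lower counts were 346 and 345 with at least 2 Havcr2 UMIs, 888 and 975 with the thinned gate, 522 and 574 at 20 CPM and 55 and 64 at 100 CPM, and 275 were higher with at least 2 Cd8 UMIs. For WT anti-PD1 they were 1123 and 795 at 20 CPM and 385 and 278 at 100 CPM, with 975 higher under the thinned gate. For A159V anti-PD1 they were 453 and 347, 1077 and 1103, 680.0 and 495, and 86 and 58 in the same order of settings, and 268 were lower without barcodes that held a myeloid UMI.

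Against Havcr2-negative cells, higher and lower counts were 284 and 170.0 with DESeq2, 19 and 24 without the library block, 359 and 239 with at least 2 Cd8 UMIs, 101 and 68 with the thinned gate, and 271 to 527 and 146 to 366 with a library left out. Against NK cells they were 269 and 221 without the block and 470.0 to 733 and 408 to 574 with a library left out, and 1015 were lower without a filter. Against regulatory T cells they were 189 and 288 without the block and 241 to 465 and 342 to 591 with a library left out. Between groups no paired analysis was possible because each group has 1 library, so the groups share fewer than 2 replicate numbers. The class comparisons were paired through the library block.

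With the thinned gate the log2 ratio reversed for Iigp1 (0.92 in A159V IgG over WT IgG, 0.13 in WT anti-PD1 over WT IgG), Hist1h2ae (2.74), Hist1h1b (3.63), Maf (-1.41), Oasl2 (4.57) and Hk2 (3.63) in WT anti-PD1 over WT IgG, and Id3 (3.95) in A159V anti-PD1 over A159V IgG. It also reversed for Xcl1 (-0.41) with at least 2 Havcr2 UMIs, and without myeloid barcodes for Ifit1 (-0.48), both in A159V anti-PD1 over A159V IgG, and for Tyrobp (0.90) in WT anti-PD1 over WT IgG. Against Havcr2-negative cells Ctss reversed with the thinned gate (-0.074), without doublets (-0.40) and without myeloid barcodes (-0.50), and H2-Aa (-0.61) and H2-Eb1 (-1.22) without doublets. Of 350 gene and class results, 2952 values kept direction and call and 636 lost the call. The cause was not tested. Depth limits A159V IgG most, with 208528 UMIs in 47 cells.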
